A study of Mus musculus with 7 samples.

Results

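The cell cycle copies the genome in S phase and divides it in mitosis, and each step has its own set of transcribed genes. Mcm2 to Mcm7 encode the subunits of the helicase that Cdc6 and Cdt1 load onto replication origins, Gins2 belongs to the complex that activates this helicase, Pcna is the sliding clamp of DNA polymerase, and Rrm1, Rrm2 and Tyms supply nucleotides. The mitotic genes encode the cyclins and the kinase that start division, the checkpoint, kinetochore, kinesin and spindle proteins that move chromosomes, and the ubiquitin machinery that ends division. In adult skin, dividing cells are found mainly in the basal epidermis and the growing hair follicle, and immune and stromal cells can divide as well.

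In total, 44 genes of this programme were followed among the 55450 genes of a count table from dorsal skin of C57BL/6 male mice aged 24 months, with 1 bulk RNA-seq library per mouse. They were a list of named cell-cycle genes and were split by function into 13 replication genes, 29 mitotic genes and the 2 cyclin E genes, Ccne1 and Ccne2, which drive entry into S phase. The skin was depilated, covered with a dressing and treated topically for 5 days with vehicle (DMSO, 4 mice, numbered 480 to 483) or with 5 µM ABT-263 (3 mice, numbered 476 to 478), an inhibitor of the anti-apoptotic Bcl-2 family proteins that is used as a senolytic, a drug that kills senescent cells. All 7 mice were wild type, and no untreated skin was among the libraries. Whether fewer dividing cells or less RNA per dividing cell lowers a value cannot be told apart in bulk skin.

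Libraries held 20344364 to 26824123 counted read pairs after DMSO and 27325963 to 43562330 after ABT-263. The 44 genes took 0.0986% to 0.156% of the counts in the DMSO libraries and 0.0914% to 0.153% in the ABT-263 libraries. A single gene had between 50 and 4187 counts in a library, and all 44 passed the filter on low counts. Levels are given as CPM, counts divided by the TMM-scaled library size, which allows mice to be compared. Where genes are compared with each other, CPM was divided by the exon length in kilobases. Keratinocyte markers were present in every mouse. Skeletal muscle markers summed to 34823 to 70787 CPM after DMSO and to 27647 to 36598 CPM after ABT-263, so the samples held muscle.

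The promoters of replication and mitotic genes differed in part of the motifs searched. Replication genes are known targets of E2F factors, and mitotic genes are known to be controlled through the cell cycle homology region (CHR), bound by the Lin54 subunit of the DREAM and MuvB complexes, together with CCAAT boxes bound by NF-Y. RefSeq promoters on GRCm38.p6, from 250 bases before to 50 bases after the start, were given for 37 of the 44 genes, and 1 start per gene was searched on both strands, overlapping matches included. The CHR, searched as TTTGAA or TTCGAA, was in 20 of 25 mitotic promoters (80%), 2 of 11 replication promoters (18.2%) and 19.4% of all 27025 promoters. An E2F site, searched as TTTCCCGC, TTTGGCGC, TTTCGCGC or TTTGCCGC, was in 6 of 11 replication promoters (54.5%), 1 of 25 mitotic promoters (4%) and 2.32% of all promoters. The box CCAAT was in 19 mitotic promoters (76%), 8 replication promoters (72.7%) and 37.9% of all. A CHR and a CCAAT box stood in the same promoter for 17 mitotic genes (68%) and 2 replication genes, against 7.7% of all promoters. These are matches of letters, not measured binding.

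**Figure D1:**
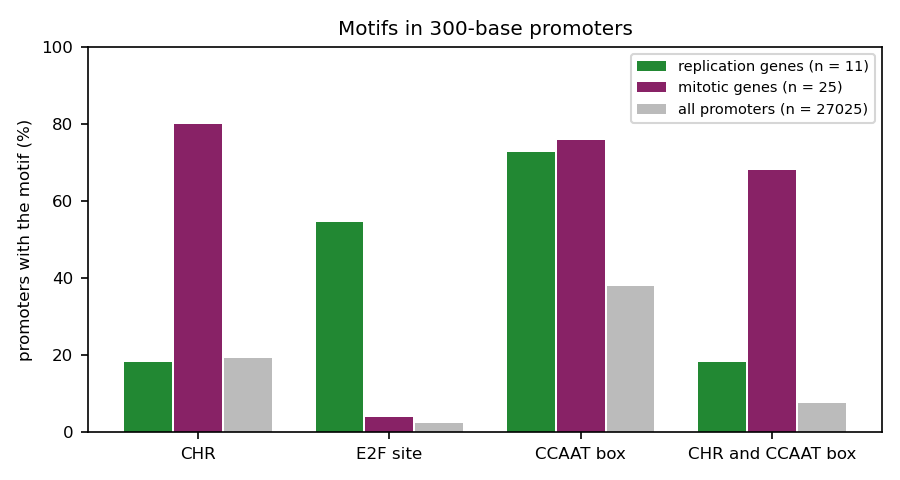
Percentage of 300-base promoters that hold each motif, for replication genes, mitotic genes and all promoters in the RefSeq table. The CHR was in 80% of mitotic and 18.2% of replication promoters, and the E2F site in 4% and 54.5%.

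Promoters of 4 genes are printed 5′ to 3′, with all matches to the CHR, E2F and CCAAT letters in capitals. Ccnb2 shows a mitotic promoter with CHR and CCAAT matches, Mcm6 shows a replication promoter with E2F matches, and Ube2c and Mcm7 are the mitotic and the replication gene with the lowest fold change after ABT-263.
Ccnb2, chr9:70421505-70421804, minus strand: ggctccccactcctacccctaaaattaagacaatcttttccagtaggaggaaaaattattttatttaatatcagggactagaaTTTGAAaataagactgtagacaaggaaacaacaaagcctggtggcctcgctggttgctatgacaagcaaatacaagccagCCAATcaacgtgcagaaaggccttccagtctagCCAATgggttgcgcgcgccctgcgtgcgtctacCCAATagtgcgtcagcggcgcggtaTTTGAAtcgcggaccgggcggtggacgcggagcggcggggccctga
Ube2c, chr2:164769679-164769978, plus strand: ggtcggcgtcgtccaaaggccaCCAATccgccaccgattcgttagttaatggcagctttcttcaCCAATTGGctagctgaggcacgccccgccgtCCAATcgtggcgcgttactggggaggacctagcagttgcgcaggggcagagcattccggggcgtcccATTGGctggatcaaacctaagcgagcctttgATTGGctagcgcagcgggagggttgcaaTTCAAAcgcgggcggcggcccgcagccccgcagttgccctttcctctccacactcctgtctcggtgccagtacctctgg
Mcm6, chr1:128359656-128359955, minus strand: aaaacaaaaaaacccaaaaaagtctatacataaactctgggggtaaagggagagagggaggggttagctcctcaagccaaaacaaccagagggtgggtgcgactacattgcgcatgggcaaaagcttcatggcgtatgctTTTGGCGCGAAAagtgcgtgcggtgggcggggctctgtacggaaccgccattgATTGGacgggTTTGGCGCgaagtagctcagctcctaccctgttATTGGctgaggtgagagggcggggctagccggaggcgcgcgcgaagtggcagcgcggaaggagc
Mcm7, chr5:138171834-138172133, minus strand: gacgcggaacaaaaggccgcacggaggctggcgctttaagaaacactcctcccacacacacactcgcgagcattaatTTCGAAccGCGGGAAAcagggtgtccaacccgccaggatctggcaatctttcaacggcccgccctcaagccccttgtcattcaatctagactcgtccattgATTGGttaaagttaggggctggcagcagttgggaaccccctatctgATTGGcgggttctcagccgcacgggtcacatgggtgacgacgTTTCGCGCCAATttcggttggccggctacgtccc
In the mitotic pair, Ccnb2 carried 2 CHR matches and 3 CCAAT boxes, and Ube2c carried 1 CHR match (on the other strand, so printed TTCAAA) and 6 CCAAT boxes, of which one pair overlaps as CCAATTGG. Mcm6 carried 3 E2F matches, of which 1 pair overlaps, 2 CCAAT boxes and no CHR. The promoter of Mcm7 carried 2 E2F matches, 3 CCAAT boxes and 1 CHR match. It is one of the 2 replication promoters with a CHR, and its second E2F match overlaps a CCAAT box. Birc5, Nuf2, Nusap1, Tyms and Ccne1 had none of these letters in the window.

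None of the 44 genes passed the test between ABT-263 and DMSO in either direction. With edgeR's quasi-likelihood test and an adjusted p-value under 0.05, 0 of the 44 were higher and 0 lower, while 24.2% of the 17959 genes tested differed, 12.4% higher and 11.7% lower. At an unadjusted p-value under 0.05, 3 were higher (Gins2, Pcna and Aurkb) and 2 lower (Ube2c and Birc5), against 40.1% of all genes in either direction. The DESeq2 Wald test called 4 of the 44, Gins2 and Aurkb higher and Ube2c and Birc5 lower, against 33.1% of all genes it tested. No gene of the 44 had all 3 ABT-263 mice above all 4 DMSO mice (18.7% of all genes), and 2, Ube2c and Ccne2, had all of them below (18.4% of all genes). The 95% confidence interval of the fold change stayed within 2-fold in either direction for 34 of the 44 genes (77.3%), compared with 45.9% of all genes tested.

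**Figure D2:**
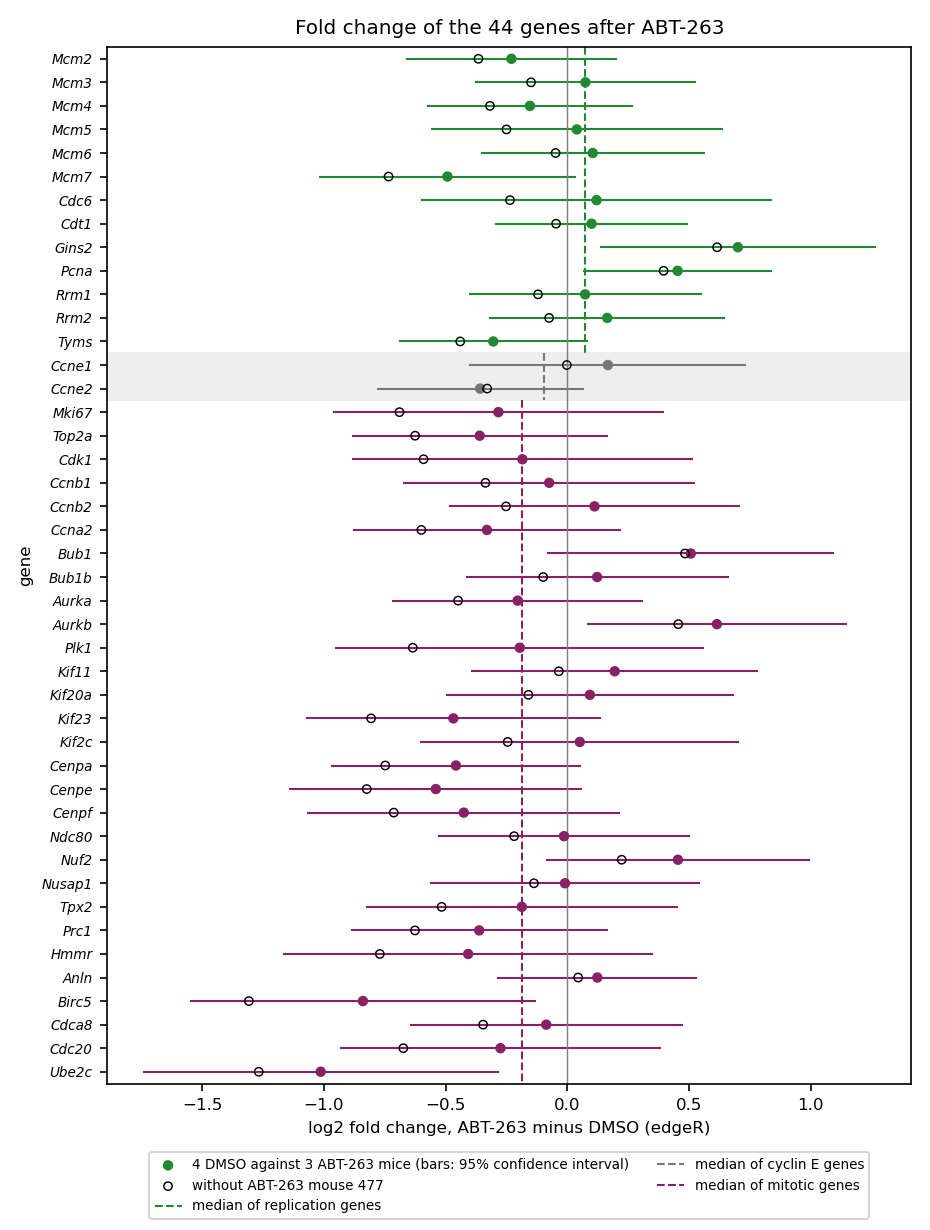
Log2 fold change of each gene, ABT-263 minus DMSO, from edgeR, with 95% confidence intervals for 4 DMSO against 3 ABT-263 mice. Open circles are the values without ABT-263 mouse 477 and dashed lines are the medians of each group of genes (0.07 for replication, -0.10 for cyclin E and -0.19 for mitotic genes).

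The 9 licensing and helicase genes spread on both sides of 0. Mcm7, on chromosome 5 from 138164583 to 138172422, was at 77.4, 79.4, 65.7 and 50.4 CPM in DMSO mice 480 to 483 and at 38.8, 64.8 and 41.8 CPM in ABT-263 mice 476, 477 and 478. Mice 476 and 478 lay below every DMSO mouse and mouse 477 lay within the DMSO range. Its log2 fold change was -0.49 (SE 0.23, adjusted p = 0.145 from edgeR), the lowest of the replication genes. The other helicase subunits, Mcm2 to Mcm6, lay between -0.23 (Mcm2) and 0.10 (Mcm6). Among the loaders, Cdc6 was at 0.12 and Cdt1 at 0.10, with Cdc6 the least abundant replication gene per kilobase of exon (0.82 CPM per kilobase after DMSO, compared with 15.4 for Mcm7).

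Gins2, on chromosome 8 from 120578633 to 120589304, had the highest log2 fold change of all 44 genes. Its levels were 7.49, 8.85, 7.13 and 5.22 CPM in the DMSO mice and 8.29, 13.3 and 13.4 CPM in mice 476, 477 and 478. Mouse 476 lay within the DMSO range and the other two lay above it. The log2 fold change was 0.70 (SE 0.25, adjusted p = 0.0694 from edgeR). In the annotation, 67.3% of its exon bases overlap a gene on the opposite strand and 0% one on the same strand. The authors counted read pairs on the same strand only.

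Pcna, the clamp, on chromosome 2 from 132249162 to 132253314, was at 37.6, 49.4, 39.5 and 32.2 CPM after DMSO and at 46.7, 60.3 and 55.9 CPM after ABT-263. Only DMSO mouse 481 reached into the ABT-263 range. The log2 fold change was 0.45 (SE 0.17, adjusted p = 0.0804 from edgeR), and without mouse 481 it was 0.57 with an adjusted p of 0.046, in a range of 0.046 to 0.195 over 14 alternatives. The 3 nucleotide supply genes had log2 fold changes of 0.07 (Rrm1, ribonucleotide reductase large subunit), 0.16 (Rrm2, its small subunit) and -0.30 (Tyms, thymidylate synthase), none past the threshold. Ccne1 and Ccne2 had values of 0.17 and -0.36. Ccne2, on chromosome 4 from 11191351 to 11204779, was at 6.18, 7.54, 6.77 and 6.49 CPM in the DMSO mice and 4.65, 5.22 and 5.91 CPM in the ABT-263 mice, without overlap of the groups (adjusted p = 0.182 from edgeR).

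Among the mitotic genes, Mki67, whose protein is the common marker of proliferating cells, was at 94.0, 104, 76.5 and 64.2 CPM after DMSO and at 48.6, 106 and 54.9 CPM after ABT-263. The highest and the lowest value of all 7 mice were both in the ABT-263 group. Its log2 fold change was -0.28 (SE 0.29, adjusted p = 0.507 from edgeR), with a 95% confidence interval from -0.96 to 0.39. Top2a, the topoisomerase that untangles replicated chromosomes, had a log2 fold change of -0.36.

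Of the 4 genes for mitotic cyclins and their kinase, Ccna2 (-0.33), Cdk1 (-0.18) and Ccnb1 (-0.07) had negative log2 fold changes and Ccnb2 a positive one (0.11), none past the threshold. The 5 kinase and checkpoint genes had a median of 0.12. Aurkb, the kinase of the chromosomal passenger complex, on chromosome 11 from 69045647 to 69051664, was at 6.47, 9.69, 7.29 and 5.83 CPM in the DMSO mice and 9.47, 13.9 and 10.2 CPM in the ABT-263 mice, so that a single DMSO mouse, 481, lay above the lowest ABT-263 mouse. Its log2 fold change was 0.61 (SE 0.23, adjusted p = 0.0851 from edgeR). Values for the other members were 0.51 for Bub1, 0.12 for Bub1b, both of the spindle checkpoint, and -0.20 for both Aurka and Plk1, kinases of the centrosome and of mitotic entry.

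Among the 44 genes, 2 others encode partners of Aurkb in the passenger complex. Birc5, which encodes survivin, on chromosome 11 from 117849251 to 117855743, was at 66.2, 56.5, 51.5 and 44.1 CPM after DMSO and at 22.0, 48.1 and 21.4 CPM in mice 476, 477 and 478. Mice 476 and 478 stood well below the DMSO range, whereas mouse 477 lay inside it. The log2 fold change of Birc5 was -0.84 (SE 0.31, adjusted p = 0.0796 from edgeR), and that of Cdca8, which encodes borealin, was -0.09.

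Both genes of the anaphase-promoting complex pathway were the most abundant of the 44 per kilobase of exon after DMSO. Ube2c was at 37.7 and Cdc20, an activator of the complex, at 30.3 CPM per kilobase. Ube2c, the ubiquitin-conjugating enzyme of this complex, on chromosome 2 from 164769898 to 164778822, had the lowest log2 fold change of all 44 genes. It was at 67.4, 98.7, 147 and 78.9 CPM in DMSO mice 480 to 483 and at 44.5, 66.1 and 34.99 CPM in mice 476, 477 and 478. The groups did not overlap, although mice 477 and 480 were close and the DMSO mice differed widely among themselves. Its log2 fold change was -1.01 (SE 0.32, adjusted p = 0.0504 from edgeR), and over 14 alternatives the adjusted p ranged from 0.0129 to 0.153, with 5 of them past the threshold. Cdc20, at 73.0, 55.8, 52.8 and 44.6 CPM after DMSO and 34.4, 70.5 and 35.3 CPM after ABT-263, had a log2 fold change of -0.27.

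The 5 centromere and kinetochore genes had a median log2 fold change of -0.43. Cenpe (-0.54), the kinetochore motor, Cenpa (-0.46), the centromeric histone, and Cenpf (-0.43) were the lowest, while Nuf2 was at 0.45 and its binding partner Ndc80 at -0.01. Of the 4 kinesins, Kif11 (0.19), Kif20a (0.09) and Kif2c (0.05) were above 0 and Kif23 (-0.47), a kinesin of cytokinesis, below. The 5 spindle and cytokinesis genes ran from -0.41 (Hmmr) and -0.36 (Prc1) through -0.19 (Tpx2) and -0.01 (Nusap1) to 0.12 (Anln). None of these 14 genes passed the threshold in the comparison of all mice.

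The spread within each group was shared by most of the 44 genes. ABT-263 mouse 477 was the highest of the 3 ABT-263 mice for 41 of the 44 genes, compared with 35.2% of all genes tested, and the exceptions were Bub1, Ccne2 and Gins2, in which mouse 478 was highest. It was the highest of all 7 mice for 24. Its level was a median of 1.62 times the mean of mice 476 and 478 over the 44 genes (1.42 for replication and 1.67 for mitotic genes), against 0.98 over all genes tested. Among the DMSO mice, 481 was highest for 27 genes, 480 for 15, and 483 was lowest for 32. Of the replication genes, 481 was highest for 12 of 13, whereas the highest DMSO mouse among the mitotic genes was 481 for 14 and 480 for 13 of 29. The summed level of the 44 genes was 1374, 1467, 1247 and 1025 CPM in DMSO mice 480 to 483 and 893, 1506 and 959 CPM in ABT-263 mice 476 to 478.

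**Figure D3:**
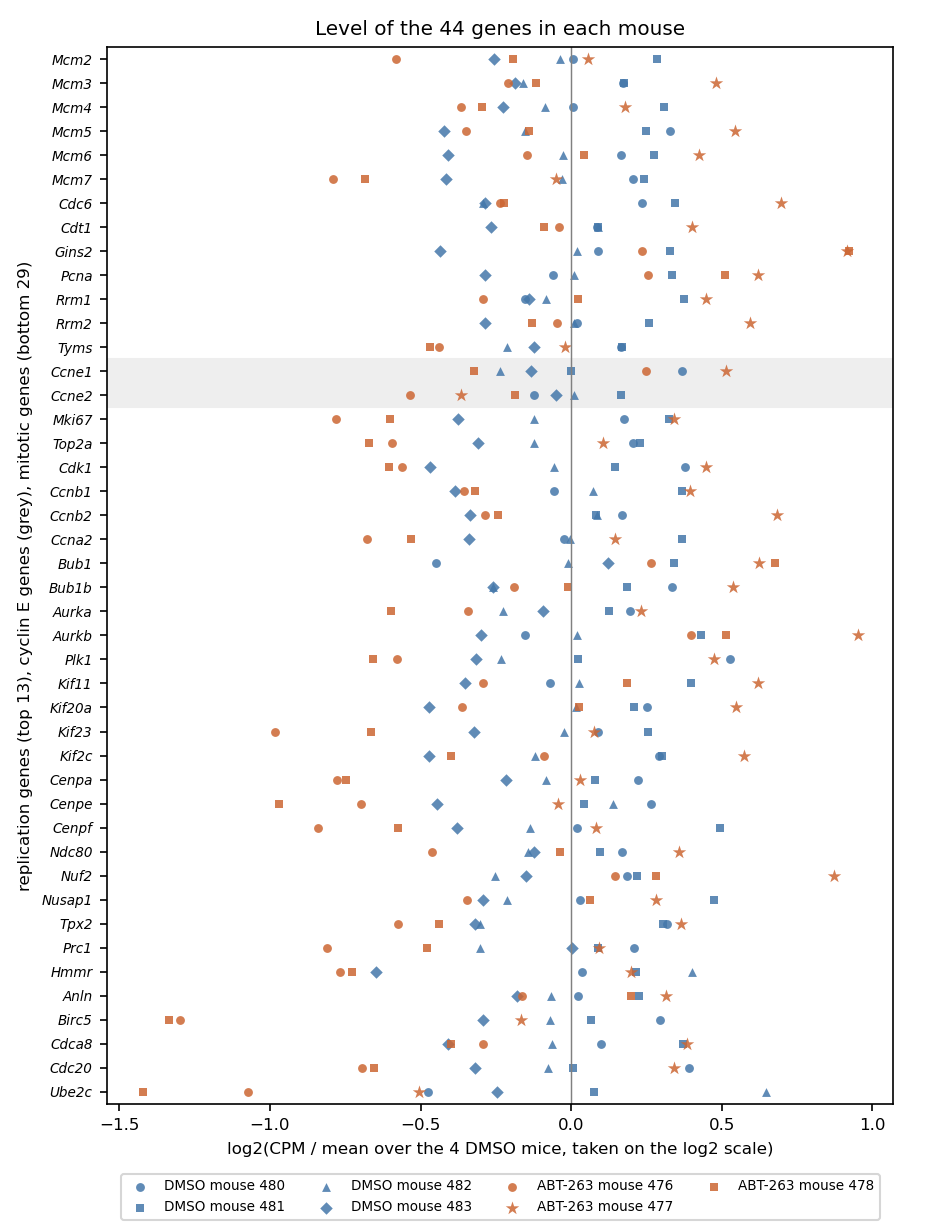
Level of each gene in each mouse as log2 CPM relative to the mean of the log2 CPM of the 4 DMSO mice. Stars mark ABT-263 mouse 477, the highest ABT-263 mouse for 41 of 44 genes, and the other ABT-263 mice lie to its left for these genes.

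Leaving out mouse 477 changed the calls. Without it, edgeR called 5 of the 44 genes lower (Birc5 -1.31, Ube2c -1.27, Kif23 -0.81, Cenpa -0.75 and Mcm7 -0.73 on the log2 scale) and 0 higher, against 21.6% of all genes tested in either direction. The adjusted p-values of these 5 genes were 0.00939 to 0.0473 without mouse 477 and 0.0504 to 0.219 with it. In that comparison 38 of the 44 log2 fold changes were negative, 25 of 29 mitotic and 11 of 13 replication, with medians of -0.52 and -0.15. Mouse 477 was picked out as the highest ABT-263 mouse for 41 of the 44 genes, so its omission had to lower most fold changes. These counts are therefore no separate result, and the share of negative values over all genes in that fit is not given. The omission of each other mouse is given below. The values of Gins2 (0.62), Bub1 (0.48), Aurkb (0.46) and Pcna (0.39) stayed positive, with adjusted p-values of 0.147, 0.279, 0.21 and 0.162. No label sets mouse 477 apart, and the comparison of all 7 mice is the one reported.

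Markers of skin compartments also differed between these mice. The 7 basal keratinocyte markers, led by Krt14 and Krt5, summed to 35946 CPM in mouse 477 and to 13873 and 16318 CPM in mice 476 and 478, while the DMSO mice ranged from 18201 to 31227 CPM, the highest being mouse 480. In mean log2(CPM + 1), these 7 markers were also highest in mouse 477 (9.73). Among the DMSO mice, mouse 481 was highest by this measure (9.49) and mouse 480 next (9.43). The 4 wound keratinocyte markers (Krt6a, Krt6b, Krt16 and Krt17) summed to 21747 CPM in mouse 477. They summed to 9345 and 10182 CPM in the other ABT-263 mice and to 2529 to 18950 CPM after DMSO, where mouse 480 was highest. The 21 growing hair follicle markers summed to 4156 CPM in DMSO mouse 481, to 740 CPM in ABT-263 mouse 478 and to at most 129 CPM in the other mice. The hair keratins Krt33b and Krt81 were at 0 to 0.33 CPM in DMSO mice 480, 482 and 483 and in ABT-263 mice 476 and 477. Of these lists, 1 basal keratinocyte marker was called higher and 1 lower, and 0 of 4 wound keratinocyte and 0 of the 17 tested follicle markers were called. Sums of fibroblast, macrophage, neutrophil and endothelial markers were higher in every ABT-263 mouse than in any DMSO mouse. Mouse 477 was the lowest ABT-263 mouse for fibroblast, macrophage and neutrophil markers. Called higher were 4 of 7 fibroblast, 5 of 8 macrophage, 3 of 6 tested neutrophil and 5 of 6 endothelial markers. The share over all genes tested was 12.4%, and 0 of these markers were called lower. Sums of T cell, sebocyte, adipocyte and suprabasal keratinocyte markers overlapped between treatments. The 8 skeletal muscle markers overlapped between treatments as summed CPM. Per kilobase of exon they summed to 22206 to 44601 after DMSO and to 15643 to 20023 after ABT-263, without overlap. Of these 8, 2 were called lower, beside 11.7% of all genes tested. The part of tissue composition in the values of the 44 genes was not tested.

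**Figure D4:**
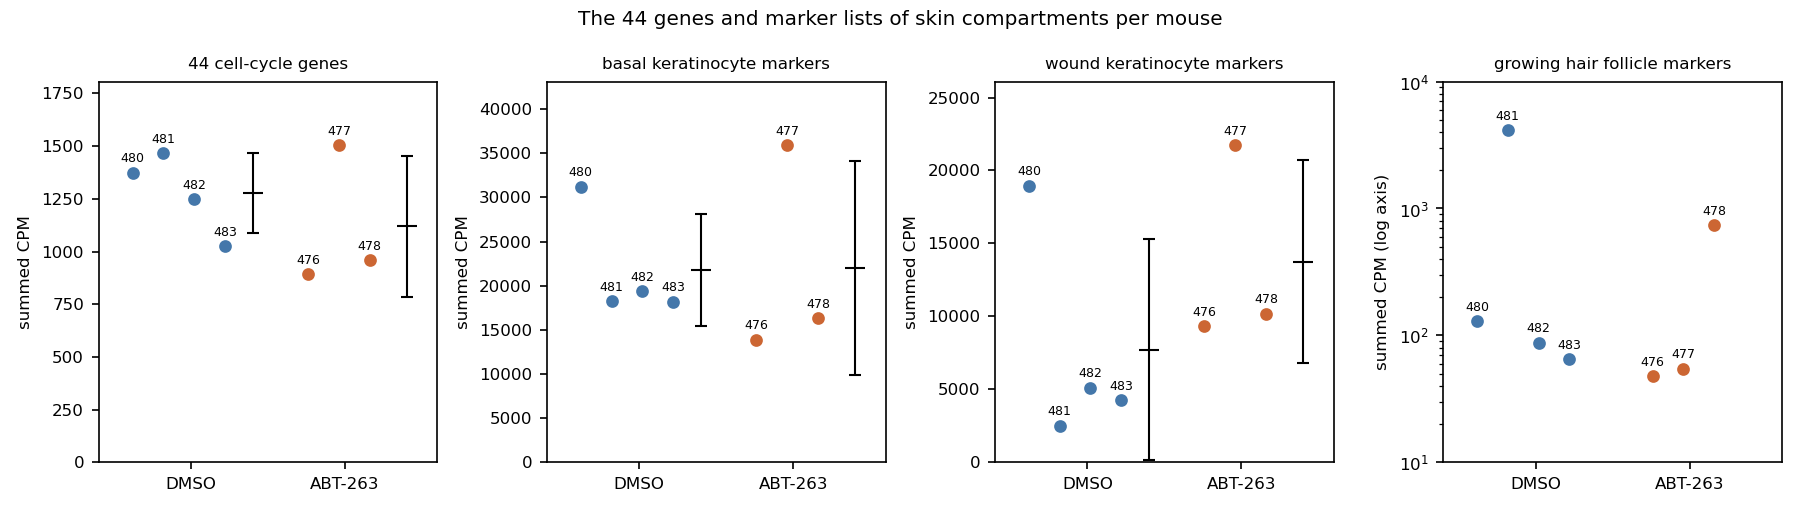
Summed CPM of the 44 genes and of markers of basal keratinocytes, wound keratinocytes and growing hair follicle in each mouse, labelled by mouse number, with mean and SD per group on the linear axes. Mouse 477 is highest in the first 3 panels and DMSO mouse 481 in the log-scale follicle panel.

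Replication and mitotic genes were then set against each other within each mouse. The median log2 fold change was 0.07 for the 13 replication genes (9 positive, 4 negative) and -0.19 for the 29 mitotic genes (9 positive, 20 negative), compared with 0.002 over all genes tested. With trends on gene length and GC content removed, the replication median was -0.03 and the mitotic one -0.28. The difference of the medians was 0.26, and it was also 0.26 with the Mcm, Pcna and Rrm genes alone as the replication group. In DMSO mice 480 to 483 the replication genes summed to 493, 554, 439.8 and 379 CPM and the mitotic genes to 865, 897, 794 and 633 CPM. In ABT-263 mice 476, 477 and 478 the sums were 379.98, 588 and 428 CPM for replication and 499, 901 and 518 CPM for mitotic genes. Both groups of genes thus overlapped between treatments, and mouse 477 had the highest sum of each.

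The ratio of both sums did not overlap between treatments. Replication over mitotic CPM was 0.57, 0.62, 0.55 and 0.60 in the DMSO mice (0.59 ± 0.03, SD, n = 4) and 0.76, 0.65 and 0.83 in the ABT-263 mice (0.75 ± 0.09, SD, n = 3). Mouse 477, the highest in both sums, had the ratio nearest to the DMSO mice. The difference of mean log2(CPM + 1) gave the same separation, 0.51 to 0.59 after DMSO and 0.63 to 0.85 after ABT-263, as did CPM per kilobase of exon. The sum of mitotic genes rests much on Ube2c, and without it the ratios were 0.62 to 0.69 after DMSO and 0.70 to 0.89 after ABT-263. Without Ube2c and Birc5, the lowest mitotic genes, and Gins2 and Pcna, the highest replication genes, mouse 477 (0.65) fell inside the DMSO range (0.61 to 0.67), and mice 476 and 478 stayed above it at 0.75 and 0.78. No test was run on these ratios, since the genes were chosen with results of these mice known.

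**Figure D5:**
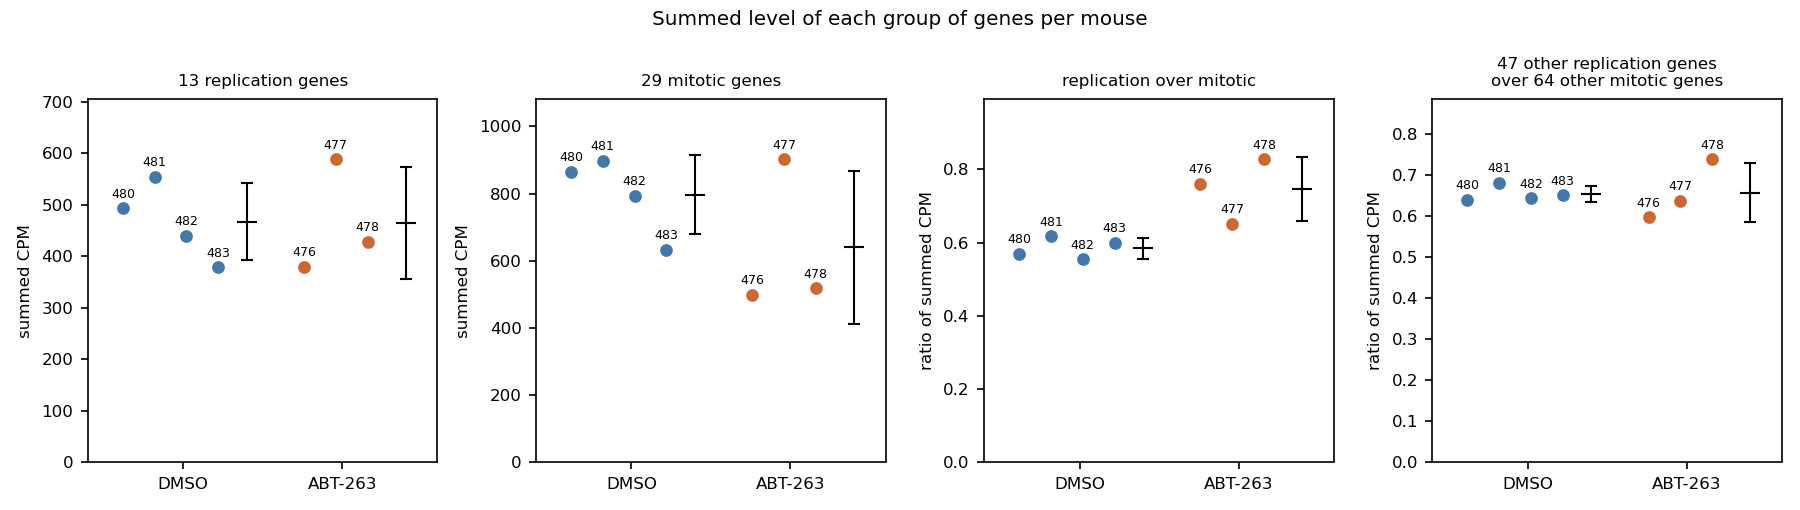
Summed CPM of replication and mitotic genes, their ratio, and the same ratio over other replication and mitotic genes, per mouse, labelled by number, with mean and SD per group. The ratio of the 44-gene groups separates the treatments (0.55 to 0.62 against 0.65 to 0.83), and that of the other genes overlaps (0.64 to 0.68 against 0.60 to 0.74).

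Other genes of the same processes were counted beside the 12.4% higher and 11.7% lower of all genes tested. Of 47 other replication genes, 1 was higher and 1 lower at the edgeR threshold, with a median log2 fold change of -0.06. Orc3, an origin recognition subunit, was at 5.73, 8.51, 8.26 and 7.64 CPM in the DMSO mice and at 15.1, 11.1 and 14.2 CPM in the ABT-263 mice. It rose by a log2 fold change of 0.84 (SE 0.20, adjusted p = 0.0225 from edgeR) and lost its call when mouse 476, 478, 482 or 483 was left out. Rpa2, a subunit of the protein that coats single-stranded DNA, was at 70.1, 84.0, 72.6 and 67.5 CPM after DMSO and at 34.0, 45.9 and 34.2 CPM after ABT-263. All ABT-263 values of Rpa2 lay below all DMSO values (log2 fold change -0.95, SE 0.15, adjusted p = 0.0082 from edgeR). Of 64 other mitotic genes, 0 were higher and 2 lower, with a median of -0.14, and at an unadjusted p-value under 0.05 there were 2 higher and 6 lower. Pttg1, which encodes securin, was at 69.97, 71.5, 69.1 and 79.98 CPM in the DMSO mice and at 43.5, 43.3 and 44.2 CPM in the ABT-263 mice. Mouse 477 did not stand apart from the other ABT-263 mice in Pttg1 (log2 fold change -0.73, SE 0.11, adjusted p = 0.00713 from edgeR). Smc4, a condensin subunit, fell by 0.73 on the log2 scale (SE 0.17, adjusted p = 0.0211 from edgeR). Without mouse 477, 10 of these 64 mitotic genes were lower. In that fit 21.6% of all genes tested were called in either direction, and the share called lower alone is not given. Without mouse 476, 478 or 482 only 1 of the 64 was lower, and the shares over all genes in those fits are not given.

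In these lists mouse 477 was again the highest ABT-263 mouse for most genes, 39 of 47 replication and 57 of 64 mitotic. Their ratio of summed replication over mitotic CPM was 0.64 to 0.68 in the DMSO mice and 0.60, 0.64 and 0.74 in ABT-263 mice 476, 477 and 478, with overlap of the groups. Much of the mitotic sum came from Tubb5, a gene named outside the rule given below. In the DMSO mice Tubb5 was at 489 to 548 CPM and the whole sum at 1374 to 1734 CPM. It gave 605 of 1382, 513 of 1690 and 397 of 1171 CPM in mice 476, 477 and 478. The ratio without Tubb5 is not given. The difference of mean log2(CPM + 1) was 0.37 to 0.51 after DMSO and 0.54, 0.30 and 0.56 in mice 476, 477 and 478. Mice 476 and 478 lay above the DMSO range and mouse 477 below it, so the treatments did not separate here either.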

How the data were processed

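RNA-seq counts of 7 mice were used. Per the labels and methods, the authors aligned reads to mm10 with STAR 2.7.9a and counted uniquely aligned proper pairs on the same strand per Ensembl gene with featureCounts (Subread 1.6.2), without mitochondrial genes, and deposited the counts unnormalized. A second deposited table of variance-stabilized values was not used. GENCODE M21 (GRCm38) gave symbols, exon lengths and positions for 55190 of the 55450 identifiers and is not the annotation the authors counted on.

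Counts were compared with edgeR 4.0.16 in R 4.3.3 (TMM, filterByExpr, robust quasi-likelihood test, two-sided, Benjamini-Hochberg adjustment over 17959 genes, threshold 0.05), with treatment as the only term, since the labels give no batch. The script was tested on simulated data. As alternatives, the Wald test of DESeq2 1.42.0, its size factors, 2 other filters on low counts, protein-coding genes only, counts thinned to the smallest library, removal of length and GC trends (mgcv 1.9.3) and the omission of each mouse were tried. The ratios without named genes, those over the other lists and those with mice left out were added after seeing the data. All 44 genes are named, and from each pathway list up to 5 called genes in each direction, by p-value. The members and lists were chosen with earlier results of these data known.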

Additional observations from a re-analysis of the deposited data

Results flagged for a closer look

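Within the 4 DMSO mice, 48 measures (the 44 genes and 4 sums) were examined for a single mouse far from the others by Dixon's ratio of the gap to the range at its 95% critical value, and 2 were past it where chance gives 2.4. Rrm1 was at 73.1 CPM in mouse 481 and at 50.7 to 53.3 CPM in the other DMSO mice, a ratio of 0.886. Cdt1 was at 16.2 CPM in mouse 483 and at 20.7 CPM in each of the others, a ratio of 0.995. Growing hair follicle markers were also highest in mouse 481, and their part in the value of Rrm1 was not tested.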

How the results depend on the processing

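Each of the 44 genes was followed under 14 alternatives: of the 616 values, 558 kept direction and side of the threshold, 14 kept direction and passed it, and 44, in 19 genes and 0 of them called, changed sign, 13 of these without mouse 477. The counts below stood at 0 of 44 with edgeR on all mice. The DESeq2 Wald test called 2 genes higher (1 replication, 1 mitotic) and 2 lower (both mitotic), and both a minimum of 10 counts in every library and thinning to the smallest library called 1 lower, Ube2c. With single mice left out, 0 to 1 of the 44 were higher (0 to 1 replication) and 0 to 5 lower (0 to 1 replication, 0 to 4 mitotic). Ube2c passed without mouse 480 or 477, Pcna without 481 and Gins2 without 476. The mitotic median ranged from -0.52 (without 477) to -0.011 (without 476), the replication median from -0.15 to 0.22, and their difference from 0.17 (without 478) to 0.37 (without 477). With length and GC trends removed, the replication median was -0.03 and the difference 0.25. The ABT-263 over DMSO quotient of the replication to mitotic ratio was 1.28, 1.16 from mean log2(CPM + 1), 1.11 without Ube2c, Birc5, Gins2 and Pcna, and 1.21 to 1.36 with a mouse left out. Over mouse 477 alone, the 44 genes summed to 1.18 times the DMSO mean.

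Among the other replication genes, 2 were higher with the Wald test or thinning and 0 to 1 with a mouse left out, and 2 were lower with length and GC trends removed and 1 to 3 with a mouse left out. Of the other mitotic genes, 4 were lower with the Wald test and 1 to 10 with a mouse left out. Over all genes, 33.1% were called in either direction with the Wald test and 21.6% without mouse 477. Shares under the other alternatives are not given. The cause of the changes in these counts was not tested. No paired analysis was possible because the treatments share no mouse number. With 3 and 4 mice, the 95% confidence interval reached beyond 2-fold for 10 of the 44 genes, so a change of that size is within the interval for those genes.

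The values that changed sign were as follows. With length and GC trends removed, the log2 fold change was -0.0084 for Bub1b, -0.044 for Kif20a, -0.079 for Kif2c, -0.034 for Mcm3, -0.076 for Mcm5, -0.034 for Mcm6 and -0.0078 for Cdc6. With every gene with a count tested, it was 0.025 for Nusap1 and 0.021 for Ndc80, and after thinning 0.064 for Nusap1 and 0.0058 for Ccnb1. With single mice left out, it ranged from -0.099 to 0.27 for Bub1b, -0.34 to 0.063 for Ccnb1, -0.25 to 0.29 for Ccnb2, -0.0020 to 0.37 for Ccne1, -0.24 to 0.29 for Cdc6, -0.35 to 0.064 for Cdca8, -0.59 to 0.0040 for Cdk1, -0.046 to 0.20 for Cdt1, -0.035 to 0.40 for Kif11, -0.16 to 0.29 for Kif20a, -0.24 to 0.25 for Kif2c, -0.15 to 0.21 for Mcm3, -0.25 to 0.22 for Mcm5, -0.048 to 0.23 for Mcm6, -0.22 to 0.17 for Ndc80, -0.14 to 0.17 for Nusap1, -0.63 to 0.011 for Plk1, -0.12 to 0.24 for Rrm1 and -0.075 to 0.30 for Rrm2.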

Other observations

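Regulators of the same genes were counted from a list of 23 transcription factors and subunits of cell-cycle complexes. Of these, 3 were higher and 4 lower after ABT-263 (edgeR, adjusted p under 0.05), beside 12.4% higher and 11.7% lower of all genes tested, with a median log2 fold change of 0.02. Myc was at 24.96, 21.2, 23.3 and 25.7 CPM in DMSO mice 480 to 483 and at 39.3, 31.8 and 38.7 CPM in ABT-263 mice 476 to 478 (log2 fold change 0.62, SE 0.13, adjusted p = 0.0162 from edgeR). Lin54, the CHR-binding subunit of the DREAM and MuvB complexes, was at 4.42, 5.18, 3.90 and 6.203 CPM after DMSO and at 8.19, 8.17 and 9.67 CPM after ABT-263 (log2 fold change 0.81, SE 0.21, adjusted p = 0.0288 from edgeR). Rbl2, the pocket protein p130 of DREAM, was higher by 0.53 on the log2 scale (adjusted p = 0.0453 from edgeR).

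E2f1, an activator of replication genes, was at 37.4, 41.8, 37.7 and 33.97 CPM after DMSO and at 19.5, 27.7 and 21.2 CPM after ABT-263 (log2 fold change -0.73, SE 0.16, adjusted p = 0.0169 from edgeR). E2f2 was lower by a similar amount (log2 fold change -0.78, SE 0.20, adjusted p = 0.026 from edgeR). Of the other DREAM subunits in the list, Lin37 (-0.63) and Rbbp4 (-0.62) were lower, and E2f4 (0.35), E2f5 (0.02), Tfdp1 (0.49), Tfdp2 (0.0095), Rbl1 (0.23), Lin9 (-0.26) and Lin52 (-0.47) were not called. The last 7 genes lie outside the rule for named genes and were added with their values known. Of the 23 genes of the list, 5 had all ABT-263 mice above all DMSO mice (18.7% of all genes tested). All ABT-263 mice lay below in 4 (18.4% of all genes tested). Mouse 477 was the highest ABT-263 mouse for 7 of the 23 genes.

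Of 10 G1 cyclins and kinases, 0 were higher and 1 lower, and at an unadjusted p-value under 0.05 these counts were 0 and 4 (median log2 fold change -0.37). Of all 17959 genes tested, 11.7% were lower at the adjusted threshold. At an unadjusted p-value under 0.05, 3700 of all genes tested were higher and 3498 lower. All ABT-263 mice lay below all DMSO mice for 3 of the 10 (18.4% of all genes tested), and above for 0. Ccnd2, which encodes cyclin D2, was at 286, 592, 340 and 372 CPM in DMSO mice 480 to 483 and at 105, 124 and 141 CPM in ABT-263 mice 476 to 478 (log2 fold change -1.69, SE 0.27, adjusted p = 0.00798 from edgeR). Mouse 477 lay between the other ABT-263 mice.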
